A study of Homo sapiens with 6 samples.

Results

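ASNS, ALDH18A1, PYCR1, PYCR3, GPT2, GOT1, GOT2 and GLUD1 encode enzymes that make or interconvert asparagine, proline, aspartate, alanine and glutamate. These 8 genes were taken by NCBI Gene ID from a table of 28395 genes, and all 8 were found. They were measured in HCT116 cells, a line established from a human colorectal carcinoma, after 24 h in medium with 50 nM TR-107 (3 libraries) or with 0.1% DMSO, the vehicle (3 libraries). TR-107 activates ClpP, the peptidase part of the ClpXP protease in mitochondria, and the comparison asks what its activation does to the transcriptome of these cells. All 6 libraries come from this 1 cell line, without any genetic change named in the labels. The 3 libraries per treatment are named biological replicates, but how far the cultures were kept apart is not stated, and p-values here measure only the spread among these libraries.

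These enzymes sit where carbon from glucose and glutamine meets nitrogen. Glutamate is the hub: GLUD1 joins it to the citric acid cycle, and the aminotransferases GOT1, GOT2 and GPT2 pass its amino group on to make aspartate and alanine. Aspartate is in turn the substrate from which ASNS makes asparagine, and glutamate is the precursor from which ALDH18A1 and the PYCR enzymes make proline. ASNS is a classical target of the amino acid response, in which the transcription factor ATF4 acts on genes of amino acid supply. Proliferating tumour cells use aspartate for nucleotides as well as for protein, and its supply is known to depend on mitochondrial respiration.

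ASNS rose 9.45-fold, GOT1 3.02-fold and GPT2 2.50-fold in TR-107, PYCR1 (1.33-fold) and GLUD1 (1.31-fold) rose by less, and GOT2 and ALDH18A1 fell. The cytosolic aspartate aminotransferase GOT1 and its mitochondrial counterpart GOT2 therefore moved in opposite directions, and so did PYCR1 and ALDH18A1, which act in the same route to proline. PYCR3 was too low for the test. Of the 7 members tested, 5 rose and 2 fell by edgeR's quasi-likelihood test at a Benjamini-Hochberg adjusted p under 0.05, taken over all 13767 genes tested. Among all of these genes 57.8% were called, 29.2% higher and 28.6% lower, so that a call alone sets a gene apart from few others. The median log2 fold change of the 7, which were chosen with earlier results of these data known, was 0.41, against 0.01 over all genes tested. The CPM of the TR-107 libraries lay wholly above those of DMSO for 5 members and wholly below for 2, where 62.4% of all genes tested had groups that did not overlap, 31.5% higher and 30.9% lower. A rise of at least 2-fold with a call was found for 3 members and for 6.55% of all genes tested.

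Total counts ran from 17264039 to 23708135 per library. Levels are given as CPM, a gene's counts scaled to a common library size, which are relative to the other RNA of a library, so a change per cell in the total amount of RNA cannot be told apart from them. Of 6 markers of colorectal epithelium, 5 were present in every library, EPCAM at 372 to 404 unscaled CPM among them, and VIL1 was nearly absent (at most 0.0579). Of 10 markers of fibroblasts, leukocytes and endothelium, 9 stayed under 1 unscaled CPM and 5 of these were at 0, while COL1A1 was at 13.2 to 18.1. Mitochondrially encoded genes took 3.56% to 3.92% of counts in DMSO and 4.62% to 4.99% in TR-107.

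**Figure D1:**
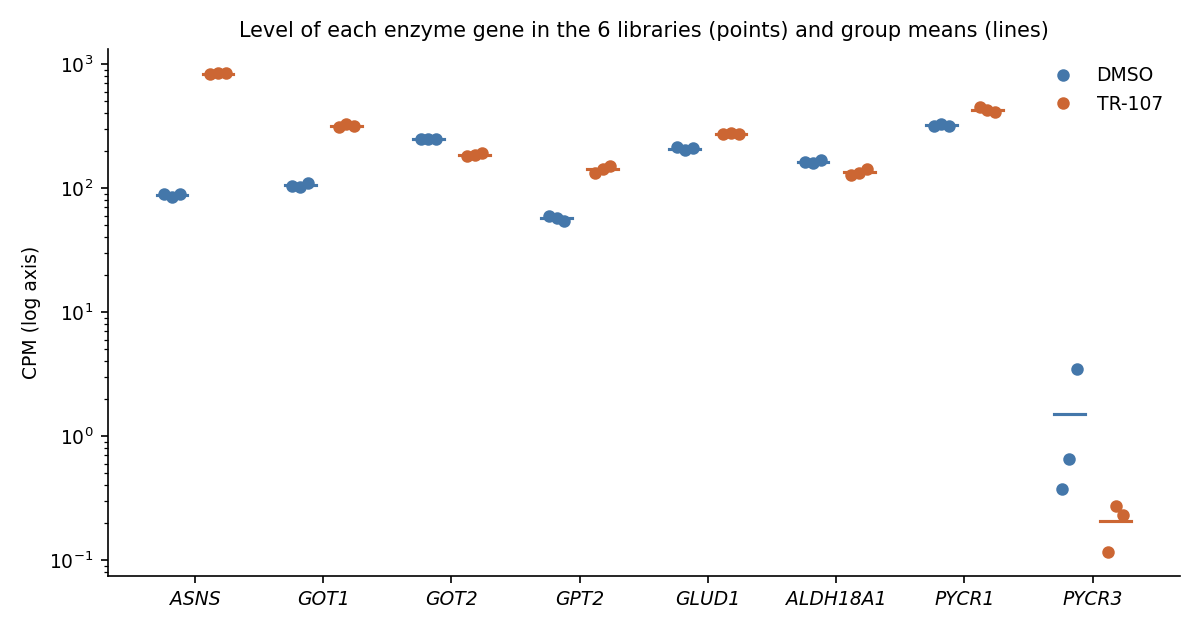
Level of the 8 genes in CPM, on a log axis, in each of 3 DMSO and 3 TR-107 libraries (points), with the group mean as a line. ASNS moves from below every other well-counted member except GPT2 to the top, and PYCR3 lies far below the rest with 1 DMSO library apart from the other two.

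The promoters of ASNS, GOT1 and GOT2 are shown because these genes bracket the response: the 2 members with the highest fold changes, and the mitochondrial counterpart of GOT1, which fell. The sequences are from RefSeq (GRCh38.p14), 5′ to 3′ along the gene, from 250 bases before the start to 50 after it, and all 3 genes lie on the minus strand. Capitals mark matches to TGATGNAA, the core of the C/EBP-ATF response element, searched on both strands, where N is any base. ASNS (chr7:97872359-97872658), GOT1 (chr10:99430575-99430874) and GOT2 (chr16:58734267-58734566) read as follows.
ASNS: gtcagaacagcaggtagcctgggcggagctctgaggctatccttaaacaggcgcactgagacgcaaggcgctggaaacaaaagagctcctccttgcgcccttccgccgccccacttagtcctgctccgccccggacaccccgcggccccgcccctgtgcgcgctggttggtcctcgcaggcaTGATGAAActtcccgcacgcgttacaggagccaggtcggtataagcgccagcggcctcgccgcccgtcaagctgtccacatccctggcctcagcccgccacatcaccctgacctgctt
GOT1: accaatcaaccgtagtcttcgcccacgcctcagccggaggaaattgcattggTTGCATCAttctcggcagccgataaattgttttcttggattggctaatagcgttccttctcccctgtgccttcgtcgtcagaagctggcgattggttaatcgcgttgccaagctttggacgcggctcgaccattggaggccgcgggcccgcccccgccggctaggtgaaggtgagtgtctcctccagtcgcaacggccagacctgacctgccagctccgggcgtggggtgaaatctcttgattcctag
GOT2: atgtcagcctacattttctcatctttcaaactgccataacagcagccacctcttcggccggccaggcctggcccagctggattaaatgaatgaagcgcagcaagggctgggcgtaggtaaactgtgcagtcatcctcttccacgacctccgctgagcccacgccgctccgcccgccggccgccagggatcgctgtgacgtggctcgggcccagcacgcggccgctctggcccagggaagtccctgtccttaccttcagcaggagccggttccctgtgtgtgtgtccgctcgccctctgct

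The match in ASNS is TGATGAAA on the gene's own strand, with its first base at -68, counting the start as +1. The match in GOT1 is TGATGCAA on the opposite strand, so it reads TTGCATCA above, from -198. A second, more downstream ASNS start in the table, and the promoters of GOT2, GLUD1 and ALDH18A1, held no such letters in this window. Thus 2 of the 6 promoters that the table holds for 5 members had a match, where 3.62% of all 35116 promoters of the same length in that table had one. The promoter of ALDH18A1 held 1 E-box (CACGTG, which reads the same on both strands), at -136, as did 7.26% of all promoters. The GOT1 promoter held 5 CCAAT boxes (CCAAT, both strands), 1 of which adjoins the TGATGNAA match, and 34.6% of all promoters held at least 1. These matches describe letters and say nothing of binding. PYCR1, PYCR3 and GPT2 are named only.

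ASNS, asparagine synthetase, moves the amide nitrogen of glutamine onto aspartate in the cytosol (gene ID 440, GRCh38 chromosome 7, 97851677 to 97928441). It stood at 90.3, 84.9 and 90.3 CPM in DMSO replicates 1, 2 and 3 and at 827, 843 and 838 CPM in the TR-107 replicates. The 2 groups are far apart and each is tight, with a coefficient of variation of 3.52% in DMSO and 1.03% in TR-107. The log2 fold change was 3.24 ± 0.04 (SE; edgeR adjusted p = 8.10e-42), which placed ASNS 49th from the top by fold and 3rd by p-value among the 13767 genes. The readthrough gene CZ1P-ASNS overlaps ASNS in the RefSeq table and was not counted separately, so reads from it cannot be told apart from those of ASNS. ASNS took 7.43 ± 0.191% of the counts of the 8 genes in DMSO and 36.1 ± 0.0486% after TR-107 (SD over 3 libraries).

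NIBAN1, SESN2, PCK2 and LCN2 were the 4 genes whose profiles lay nearest to that of ASNS. Likeness was the Euclidean distance of log2 CPM over the 6 libraries after subtraction of each gene's DMSO mean, and it ran from 0.161 for NIBAN1 to 0.215 for LCN2. They rose by 8.79-fold (LCN2) to 10.1-fold (SESN2), from mean levels of 8.47 (LCN2) to 19.0 (SESN2) CPM in DMSO, all of them below the 88.5 CPM of ASNS. The measure takes in the size of the change, so it finds genes with a similar fold and a small spread.

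GOT1, the cytosolic aspartate aminotransferase, interconverts aspartate and 2-oxoglutarate with oxaloacetate and glutamate (gene ID 2805, chromosome 10, 99396870 to 99430624). It stood at 104, 101 and 111 CPM in the DMSO libraries and at 312, 328 and 316 CPM in the TR-107 libraries. Every TR-107 library was near 3 times the DMSO level, and the fitted log2 change was 1.60 ± 0.05 (SE; edgeR adjusted p = 1.70e-29). GOT2 catalyses the same reaction in the mitochondrial matrix (gene ID 2806, chromosome 16, 58707131 to 58734316). It stood at 247, 246 and 247 CPM in DMSO, the tightest group of any member, with a coefficient of variation of 0.224%, and at 181, 186 and 191 CPM in TR-107. The groups did not overlap, and the log2 fold change was -0.41 ± 0.04 (SE; edgeR adjusted p = 6.42e-11), a 1.33-fold fall.

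The change of GOT1 against GOT2 was also read within each library, where no scaling is needed. The log2 ratio of GOT1 to GOT2 counts was -1.23 ± 0.0632 with DMSO and 0.777 ± 0.0469 after TR-107 (SD, n = 3), a 4.02-fold change of the ratio. Scaled by exon length, GOT1 made up 26.3%, 25.7% and 27.4% of the 2 mRNAs in DMSO and 59.3%, 59.7% and 58.2% in TR-107. The mitochondrial form was the more abundant mRNA in every DMSO library and the cytosolic form in every TR-107 library. The exact two-sided permutation p of the log2 ratio was 0.1, the smallest that 3 libraries against 3 allow, and 0.14 with Benjamini-Hochberg adjustment over 7 ratios. No ratio can reach 0.05 in this design. GOT1L1, a further relative, had 0 counts in all 6 libraries.

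GPT2, the mitochondrial alanine aminotransferase, transfers the amino group of glutamate to pyruvate to give alanine and 2-oxoglutarate (gene ID 84706, chromosome 16, 46884362 to 46931289). It stood at 59.4, 56.9 and 54.2 CPM in DMSO and at 131, 144 and 151 CPM in TR-107. All TR-107 libraries lay above every DMSO library, and the log2 fold change was 1.32 ± 0.06 (SE; edgeR adjusted p = 7.58e-23). The cytosolic form, GPT, had 21 to 43 counts per library, and its groups overlapped (1.39 ± 0.482 and 2.07 ± 0.538 CPM, SD, n = 3; edgeR adjusted p = 0.242). The ratio of GPT2 to GPT overlapped between the groups too (exact two-sided permutation p = 0.3, n = 3 per group; 0.3 adjusted). That test cannot go below 0.1 with 3 libraries against 3, and GPT had few counts. Whether the 2 forms changed differently therefore cannot be told here.

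GLUD1, glutamate dehydrogenase of the matrix, releases ammonia from glutamate to give 2-oxoglutarate (gene ID 2746, chromosome 10, 87050202 to 87094843). It stood at 215, 201 and 209 CPM in DMSO and at 270, 278 and 271 CPM in TR-107, without overlap. The log2 fold change was 0.39 ± 0.04 (SE; edgeR adjusted p = 1.23e-10). GPT2 and GLUD1 both give 2-oxoglutarate from glutamate, and the log2 ratio of GPT2 to GLUD1 counts went from -1.87 ± 0.0655 to -0.947 ± 0.102 (SD, n = 3), a 1.90-fold change with an exact two-sided permutation p of 0.1 (0.14 adjusted). GLUD1 is the one member whose sequence recurs away from its locus: 13.6% of the 100-base windows of its longest coding transcript also occur in transcripts of GLUD1P2, GLUD1P8 or GLUD2. GLUD2 itself had 6 to 11 counts per library and was not tested. GLUD1 also overlaps SHLD2, on the opposite strand, by 371 bases, and its counts are less certain for both reasons.

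The route to proline begins with ALDH18A1, which turns glutamate into pyrroline-5-carboxylate in mitochondria (gene ID 5832, chromosome 10, 95605941 to 95656711). It stood at 162, 159 and 167 CPM in DMSO and at 126, 132 and 143 CPM in TR-107. The TR-107 libraries were all lower, and more spread than those of DMSO. The log2 fold change was -0.28 ± 0.05 (SE; edgeR adjusted p = 5.40e-06), a 1.21-fold fall, the smallest change of the 7 tested members.

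PYCR1, the mitochondrial reductase that finishes proline from pyrroline-5-carboxylate, went the other way (gene ID 5831, chromosome 17, 81932391 to 81937300). It stood at 317, 327 and 317 CPM in DMSO and at 447, 423 and 410 CPM in TR-107, and the fitted log2 change was 0.41 ± 0.04 (SE; edgeR adjusted p = 8.95e-12). The log2 ratio of PYCR1 to ALDH18A1 counts went from 0.979 ± 0.0556 to 1.67 ± 0.153 (SD, n = 3), a 1.62-fold change with an exact two-sided permutation p of 0.1 (0.14 adjusted).

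PYCR3, a reductase of the same step that is described as cytosolic (gene ID 65263, chromosome 8, 143603210 to 143609575), had 7, 15 and 84 counts in the DMSO libraries and 2, 5 and 5 in the TR-107 libraries. DMSO replicate 3 stands apart from the other two. The gene did not pass the filter on low counts. With no filter its log2 fold change was -2.83 (edgeR adjusted p = 4.70e-05), and without DMSO replicate 3 as well it was -1.30 (edgeR adjusted p = 0.409), so no direction is given for it. PYCR3 overlaps TIGD5 by 15 bases in the RefSeq table, and TIGD5 was also low, with 7 to 19 counts. The part of this overlap in the low counts was not tested.

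**Figure D2:**
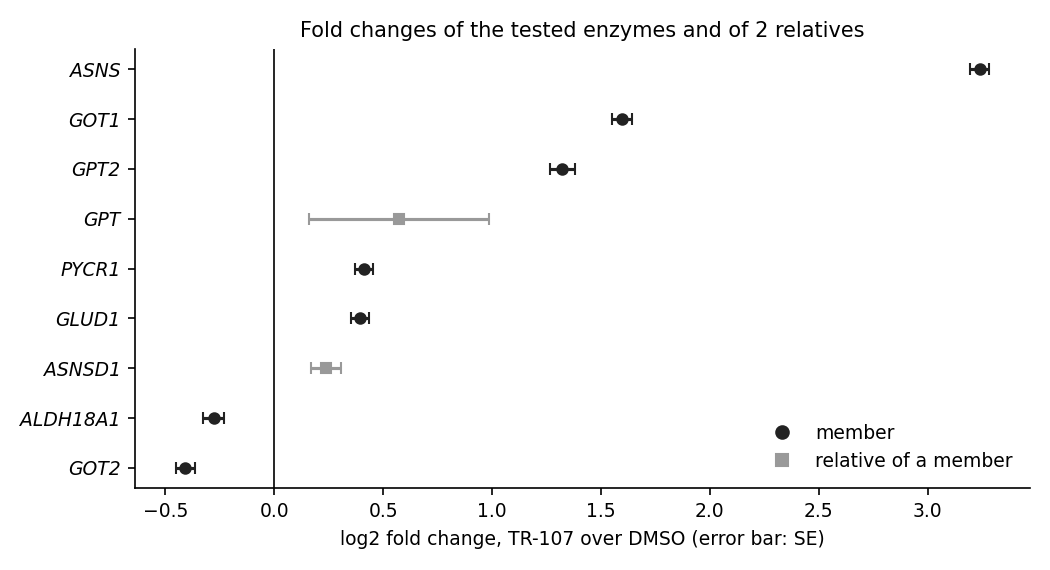
Log2 fold change of TR-107 over DMSO with its SE (bars) for the 7 tested members (circles) and the relatives ASNSD1 and GPT (squares). ASNS, GOT1 and GPT2 lie above 1, ALDH18A1 and GOT2 below 0, and the wide bar of GPT goes with its low counts.

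To compare the genes with each other, CPM were divided by exon length in kb. In DMSO the order was PYCR1 (139 ± 2.42 CPM per kb), GOT2 (100.3 ± 0.224), GLUD1 (68.5 ± 2.27), ALDH18A1 (48.4 ± 1.13), GOT1 (36.1 ± 1.67), ASNS (35.5 ± 1.25) and GPT2 (12.7 ± 0.584; SD, n = 3). GOT1 and ASNS were the only neighbours in that order whose libraries overlapped. In TR-107 the order was ASNS (336 ± 3.46 CPM per kb), PYCR1 (186 ± 8.04), GOT1 (109 ± 2.80), GLUD1 (89.9 ± 1.48), GOT2 (75.6 ± 2.16), ALDH18A1 (39.9 ± 2.58) and GPT2 (31.8 ± 2.26; SD, n = 3), with no overlap between neighbours. ASNS thus moved from the sixth place to the first and GOT2 from the second to the fifth. PYCR3 was last in both groups. The order was the same with lengths from a wider set of transcripts, in which GOT1 and ASNS no longer overlapped in DMSO.

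**Figure D3:**
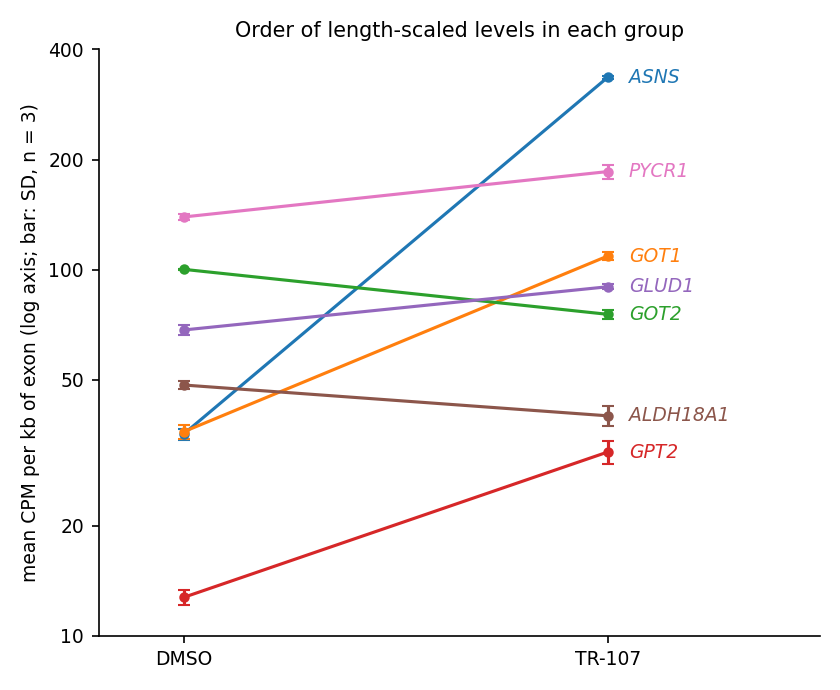
Mean CPM per kb of exon (log axis; bars are the SD of 3 libraries) of 7 members in DMSO and TR-107, joined by a line for each gene. ASNS and GOT1 start together near 36 and end at 336 and 109, while GOT2 and ALDH18A1 slope down.

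Together the 8 genes took 0.122 ± 0.000751% of all counts with DMSO and 0.226 ± 0.00218% after TR-107 (SD over 3 libraries). Without ASNS the other 7 took 0.113 ± 0.000488% and 0.145 ± 0.00145% (SD, n = 3), so most of the added counts were those of ASNS. With the mitochondrially encoded genes left out of the total, the shares of the 8 were 0.126% and 0.238%, a difference as large as with them. The log2 ratio of ASNS to GOT1 counts went from -0.252 ± 0.0426 to 1.39 ± 0.0251 (SD, n = 3; exact two-sided permutation p = 0.1, 0.14 adjusted), so ASNS rose by 3.12 times more than GOT1.

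**Figure D4:**
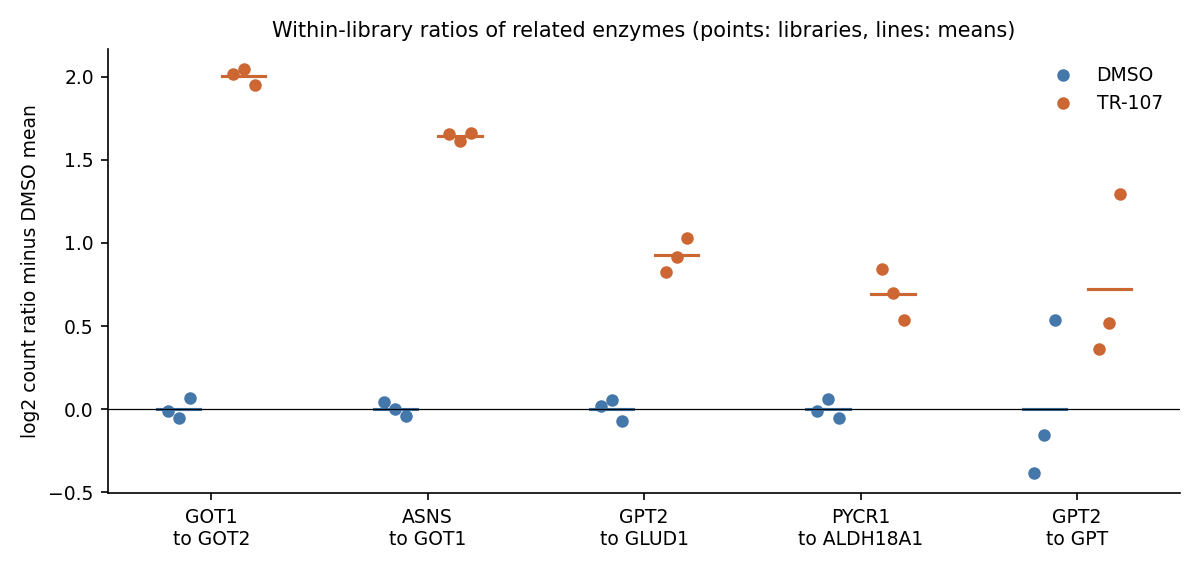
Log2 ratio of the counts of 2 related enzymes within each library, minus the DMSO mean of that ratio, for 3 DMSO and 3 TR-107 libraries (points; lines are group means). The groups are apart for the first 4 pairs, by 2.01 for GOT1 to GOT2, and overlap for GPT2 to GPT.

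The members were then set beside 70 other genes in 7 lists of neighbouring pathways, of which 55 passed the filter on low counts. Of these 55, 13 rose and 24 fell, and their median log2 fold change was -0.18. Thus 67.3% of them were called, against 57.8% of all genes tested (29.2% higher and 28.6% lower). The counts of each list below are to be read beside these shares of all genes. The 7 tested members had a higher median (0.41) than each of the 7 lists. Members and lists were chosen with earlier results of these data known, so this order is a description and not a test. The lists are described by counts only.

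Asparagine and aspartate are also used, stored or made elsewhere. Of 10 tested genes of this list, 4 rose and 3 fell (median 0.12). ASS1, which joins aspartate to citrulline, rose from 28.9 ± 1.58 to 75.3 ± 1.01 CPM (SD, n = 3), which is 1.38 on the log2 scale, and ASL (0.40), which acts next and releases arginine, rose too. NIT2 (0.38), an omega-amidase, and ASNSD1 (0.24), a protein with an asparagine synthetase domain, rose by less. ASRGL1 (-0.67), which cleaves asparagine, NAT8L (-0.66), which makes N-acetylaspartate, and RIMKLA (-1.19), which joins N-acetylaspartate to glutamate, fell. ASPG, another asparaginase, had at most 3 counts in any library.

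Of 6 tested genes of proline and ornithine metabolism, 2 rose and 2 fell (median 0.01). OAT, which links ornithine to the same pyrroline-5-carboxylate as ALDH18A1, fell from 177 ± 9.66 to 125 ± 1.79 CPM (SD, n = 3; log2 fold change -0.50), and PEPD (-0.34), which frees proline from dipeptides, fell. ARG2 (0.81), the mitochondrial arginase, rose. PRODH, which starts the breakdown of proline, had at most 1 count in any library, and ALDH4A1 (-0.09), its partner in that route, did not pass the test (edgeR adjusted p = 0.493).

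Of 7 tested genes of glutamate, glutamine and alanine metabolism, 0 rose and 2 fell (median -0.15). GLUL, glutamine synthetase, fell from 161 ± 7.09 to 113 ± 7.36 CPM (SD, n = 3; log2 fold change -0.50). GAD1 (-0.60), glutamate decarboxylase, fell, but its call was lost without DMSO replicate 3 (log2 fold change -0.35, edgeR adjusted p = 0.259) and without TR-107 replicate 3 (-0.52, 0.0753).

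ASNS belongs to the enzymes that take the amide nitrogen of glutamine and leave glutamate. Of 10 other such amidotransferases, 2 rose and 6 fell (median -0.30). GFPT1, which opens the hexosamine pathway, rose from 96.8 ± 1.80 to 349.6 ± 15.4 CPM (SD, n = 3), or by 1.85 on the log2 scale, and NADSYN1 (0.31), which makes NAD, rose. The 6 that fell were GFPT2 (-0.74), CTPS1 (-0.72), PFAS (-0.50), PPAT (-0.46), GMPS (-0.38) and CAD (-0.22). CTPS2 (-0.18), which like CTPS1 makes CTP, and QRSL1 (-0.09) did not pass the test (edgeR adjusted p = 0.175 and 0.322).

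Of 6 tested genes in the list of aminotransferases outside the members, 2 rose and 3 fell (median -0.13). PSAT1, which uses glutamate in serine synthesis, rose from 188 ± 7.60 to 605 ± 24.0 CPM (SD, n = 3). Its rise of 1.69 on the log2 scale lies between GOT1 and ASNS. PHYKPL (1.04), placed in this list although it is a phosphorylated hydroxylysine lyase, rose. BCAT2 (-0.29), for branched-chain amino acids, AADAT (-0.37) and KYAT1 (-1.01), which act on kynurenine, fell.

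The malate-aspartate shuttle carries reducing power between cytosol and mitochondria and holds both GOT1 and GOT2. Of its 7 genes GOT1 rose, 5 fell and MDH2 (-0.06) did not pass the test (edgeR adjusted p = 0.194). The 5 that fell were GOT2, the cytosolic malate dehydrogenase MDH1 (-0.26), the oxoglutarate carrier SLC25A11 (-0.28) and the aspartate-glutamate carriers SLC25A12 (-0.59) and SLC25A13 (-0.54). SLC25A22 (-0.55), a mitochondrial glutamate carrier, fell as well. In the list of 7 carriers and malate dehydrogenases, which leaves GOT1 and GOT2 out, 5 fell and 0 rose (median -0.54).

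The last list held the enzymes that load tRNA with the amino acids made by the members. All 9 were tested, and 3 rose and 3 fell (median -0.15). The cytosolic enzymes AARS1 for alanine (1.45), EPRS1 for glutamate and proline (0.70) and NARS1 for asparagine (0.58) rose. The mitochondrial enzymes EARS2 for glutamate (-0.69) and AARS2 for alanine (-0.42) were among those that fell, and NARS2 (-0.15) and PARS2 (-0.25) did not pass (edgeR adjusted p = 0.147 and 0.113). With library size alone as the scale, 5 of the 9 were called lower.

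**Figure D5:**
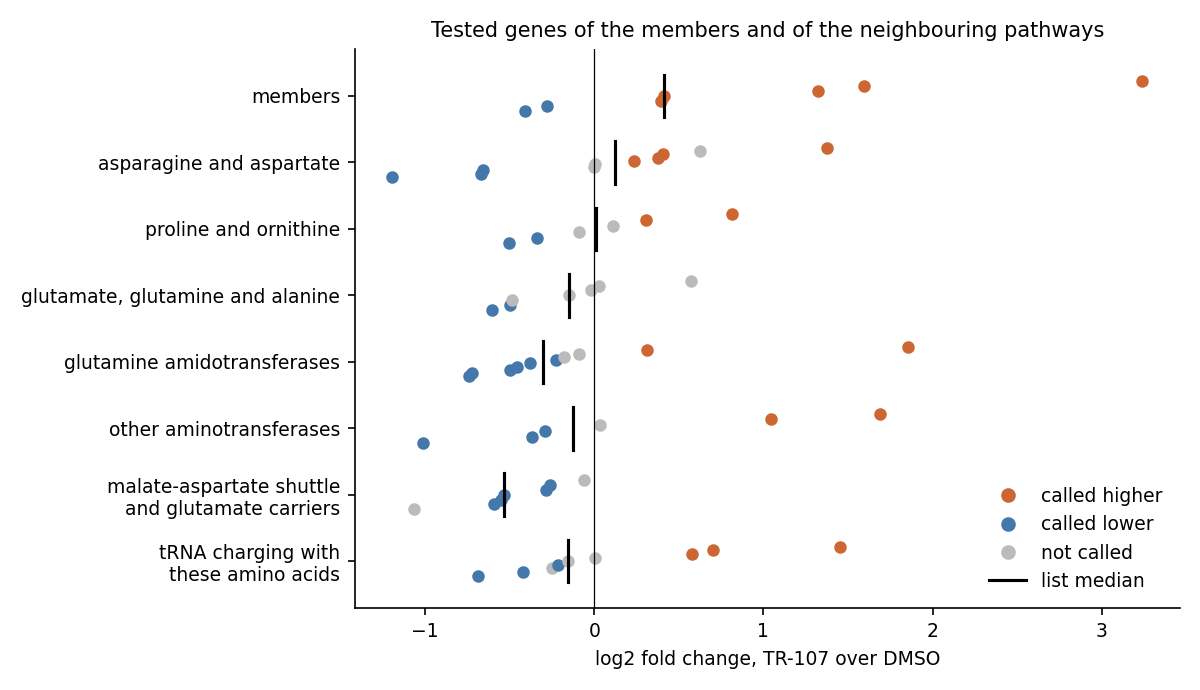
Log2 fold change of each tested gene (points, coloured by call at an edgeR adjusted p under 0.05) in the set of members and in the 7 neighbouring lists, with the list median as a line. The members' median is 0.41 and that of the shuttle and carrier list -0.54, and ASNS at 3.24 lies beyond every gene of the other lists.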

How the data were processed

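Polyadenylated RNA of 3 DMSO and 3 TR-107 cultures was sequenced as read pairs, per the labels' protocols. The authors deposited raw counts per NCBI Gene ID, and their file headers name HISAT2. The submitters' processing notes add FastQC, Trimmomatic, featureCounts and the build hg38. Of versions, annotation, strand and multi-mapping settings nothing is stated in these sources, so reads of overlapping genes or copies may be split or lost. Of 28395 IDs, 27745 matched a symbol in the RefSeq table of GRCh38.p14. The 650 others (0.0390% to 0.0502% of counts) stayed in the fit.

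Genes were tested by quasi-likelihood in edgeR 4.0.16 (R 4.3.3; TMM scaling, filterByExpr, robust fit, group alone, Benjamini-Hochberg over all genes tested). CPM (counts scaled per library) use TMM-scaled library sizes of the filtered genes. Exon lengths are unions of GENCODE 29 basic transcripts (GRCh38). Ratios within libraries, with 0.5 counts added to each gene, and shares were compared by exact permutation (SciPy 1.17.1). Genes are named by rule: all 8 members, 5 fixed relatives, up to 4 called genes per list and direction with the smallest p, and the 5 genes nearest to ASNS. A few of these are left out of the text. Genes named outside it (CAD, GFPT2, SLC25A11, and those not called or not tested) were chosen after their values were seen. The members and lists were chosen with earlier results of these data known.

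Alternatives were other scaling factors, other filters, a replicate block, DESeq2 1.42.0, limma-voom (limma 3.58.1), glmTreat against 1.5-fold and leaving out each library. One more, for PYCR3, was added after seeing the data. Replicates were checked for duplicates: the chi-square statistic per degree of freedom was 3.92 to 6.05 within groups, above sampling noise. Tested on simulated data for TR-107 against DMSO (13557 genes, 200 of them changed), the fit called 70.4%, 78%, 95.5% and 100% of changes of 1.3, 1.5, 2 and 4-fold and 0.112% of unchanged genes. The changed genes were drawn from the better-counted ones. They were also a far smaller share than the 57.8% called in the data, so these rates need not hold for the real fit.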

Additional observations from a re-analysis of the deposited data

How the results depend on the processing

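Of the 7 tested members, ASNS, GOT1 and GPT2 kept their direction and their call under all 15 alternatives, with log2 fold changes of 3.18 to 3.25, 1.53 to 1.62 and 1.26 to 1.38. PYCR1 (0.35 to 0.44), GLUD1 (0.33 to 0.40), GOT2 (-0.47 to -0.39) and ALDH18A1 (-0.34 to -0.24) lost the call under 1 alternative alone, the test against a 1.5-fold change (glmTreat), whose threshold lies above their size. That test called 1029 genes higher and 694 lower, among them 3 members higher and 0 lower. In the neighbouring lists it called 1 higher and 1 lower for asparagine and aspartate, 0 and 0 for proline and ornithine, and 0 lower for glutamate, glutamine and alanine. It called 1 higher and 1 lower among the amidotransferases, and 2 higher and 1 lower among the other aminotransferases. In the shuttle and carrier list it called 0 higher and 0 lower, and in the tRNA charging list 2 higher and 0 lower. With library size alone 5 of the tRNA charging list were lower. Leaving out 1 library gave 3596 to 3852 genes higher and 3727 to 3825 lower, and 1 to 2 lower genes for glutamate, glutamine and alanine.

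The log2 ratio of GOT1 to GOT2 changed by 1.98 to 2.04 without any 1 library and that of PYCR1 to ALDH18A1 by 0.617 to 0.77. For PYCR1 to PYCR3 the change of 2.54 went down to 1.62 without DMSO replicate 3. PYCR3 passed the filter in 4 of the fits that leave out 1 library, those without DMSO replicate 1 or any 1 TR-107 library. It passed there only through DMSO replicates 2 and 3, with 15 and 84 counts, so it was let in by the group where it is high. All 4 fits keep the outlying DMSO replicate 3. PYCR3 was called lower in them (log2 fold change -3.28 to -2.57), which gives no direction for it. Counting these calls, 2 to 3 members were lower over the fits that leave out 1 library. Same-numbered libraries did not deviate together (correlations of -0.0311, -0.0185 and 0.0486), so the numbers were not taken to pair them. With the replicate number as a block 3976 genes were higher and 3942 lower, and 5 members were higher and 2 lower as before. Depth limits what can be said of PYCR3, GPT and GLUD2.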
